A study of Mus musculus with 11 samples.

Results

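CD51+ marrow stromal cells (CD51+ BMSCs) were compared with CD45+ hematopoietic lineage cells, both sorted from mouse bone marrow. The comparison takes in 4 of the 11 arrays of the series, 2 of each population, chosen by the population that the title of each array names. CD51 is the alpha V chain of the integrins, encoded by Itgav, and CD45 is a phosphatase on the surface of leukocytes, encoded by Ptprc. Per the labels the CD51+ BMSCs were CD45-, CD31-, Ter119- and CD51+, and the methods add selection for CD105 (Eng) and CD140a (Pdgfra). The CD45+ cells were taken as 1 mixed population of all marrow leukocytes, with no further marker. Labels and methods describe the RNA of all arrays as from uncultured cells of male and female mice. On these 4 arrays, however, Xist, the RNA of the inactive X chromosome, was bright (11.35 to 11.72) and the Y-linked Eif2s3y was dim (2.47 to 2.90, against 6.43 and 8.53 on the Osx+ arrays), so that male cells were not seen in these values. The mice of the study include C57BL/6 mice and reporter strains, and which genotype, age and treatment belong to these 4 arrays is not stated. Irradiation, transplantation and pIpC are described only for the mice with Mx1-Cre. The methods describe the RNA as isolated from sorted cells of more than 1 mouse and call the arrays of a population biological repeats. They do not say if other mice were used for each array. The p-values below therefore cover only the spread between these arrays, part of which may be technical.

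Marrow stroma builds the connective tissue of the marrow and holds the cells that can form bone, cartilage and fat. It is also known as a niche, because stromal cells secrete or display the factors that keep blood stem cells and lymphoid and myeloid precursors in place and alive. Leukocytes carry the matching receptors, and their own genes serve for granules, antigen presentation, cytotoxicity and migration. Levels are given as the deposited log2 values, where a difference of 1 unit is a doubling of signal, and differences are CD51+ BMSCs minus CD45+ cells.

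The genes of the antigens used in the sorts differed in the direction of the labels. Itgav read 10.10 and 10.27 in CD51+ BMSCs, against 8.75 and 8.79 in CD45+ cells, a difference of 1.41 ± 0.13 (SE, n = 2 arrays each, adjusted p = 1.52e-04 in limma). Ptprc read 10.23 and 10.17 in CD51+ BMSCs, against 12.06 and 12.05 in CD45+ cells and fell by 1.85 (adjusted p = 3.13e-05). Ptprc was thus lower in CD51+ BMSCs but on this probe set stayed at a bright level on both of their arrays, although the sort had removed CD45+ cells. Its other probe set read 3.89 and 3.82 in CD51+ BMSCs, against 7.17 and 7.57 in CD45+ cells, a fall of 3.51. Pdgfra, which encodes a receptor of platelet-derived growth factor, read 11.44 and 11.79 in CD51+ BMSCs, against 3.62 and 3.42 in CD45+ cells. Eng, a co-receptor of TGF-beta, rose by 1.12, a call that ended without CD51+ array 2 (adjusted p = 0.0574) or without CD45+ array 2 (0.0754). Pecam1, the gene of CD31, read 3.75 and 3.98 in CD51+ BMSCs, against 6.64 and 6.75 in CD45+ cells (adjusted p = 8.22e-06). All 5 antigen genes therefore differed, with arrays of the 2 populations that did not overlap, as for 74% of all genes.

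Of 45037 probe sets tested, 7415 were higher and 11274 were lower in CD51+ BMSCs at an adjusted p under 0.05, together 41.5%. With 1 probe set per gene, 3748 of 18193 genes were higher (20.6%) and 5015 were lower (27.6%), together 48.2%, and the arrays of the 2 populations did not overlap for 74% of all genes. The larger changes were upward: 821 genes rose by at least 3 units and 249 fell by at least 3 units. The median difference over all genes was -0.07. The arrays of a population were close to each other (Pearson correlation across probe sets 0.9935 for CD51+ BMSCs and 0.9948 for CD45+ cells), while the correlation between the 2 population means was 0.862. The P-SSCs (periosteal cells) and the BM-SSCs of the series each hold a second array that stands far from the first. With all 11 arrays in the model 5.85% of probe sets were called, and 777 genes were higher (4.27%) and 702 were lower (3.86%). Without those second arrays 7935 of the 8763 gene calls held. Counts of list members below are to be read against the shares of all genes in the same fit. Fits without 1 of the 4 arrays leave 1 array in a population. Over all genes, more calls ended in at least 1 such fit than held in every one.

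**Figure D1:**
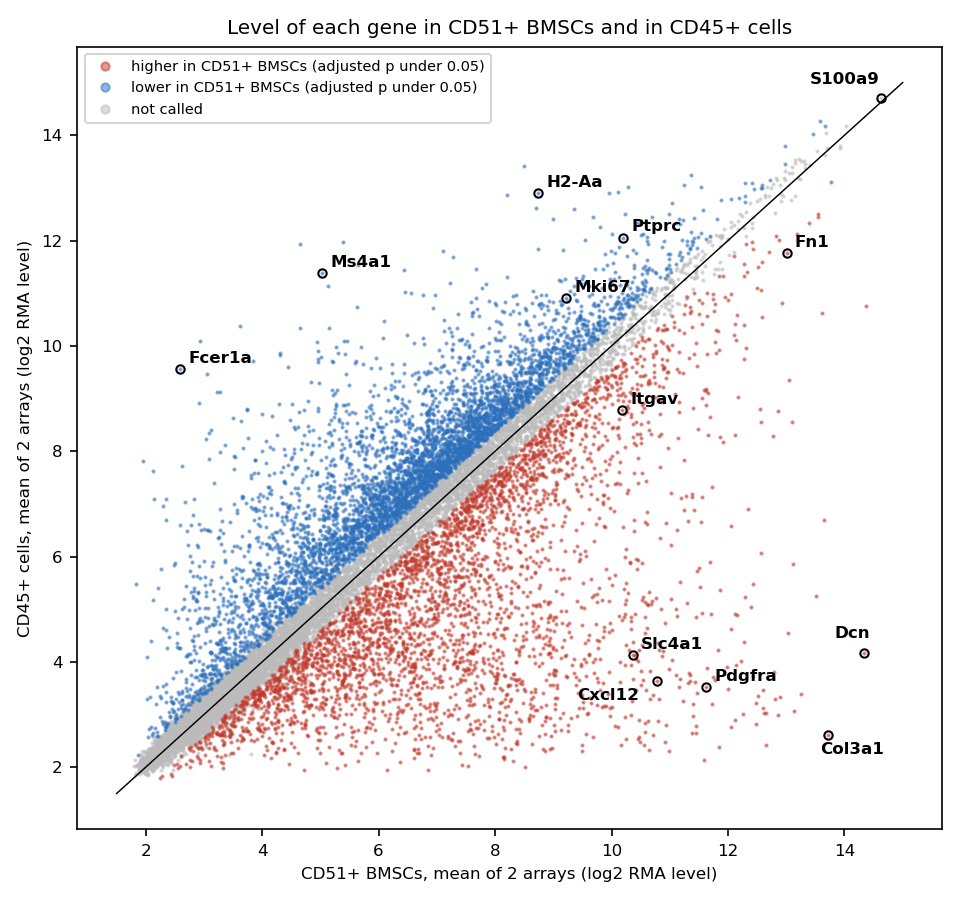
Mean log2 RMA level of each of 18193 genes in CD51+ BMSCs (horizontal axis) and in CD45+ cells (vertical axis), 2 arrays each, with called genes in colour and the line of equal level in black. The red cloud reaches far below the line at the matrix genes Col3a1 and Dcn, while S100a9, a neutrophil gene, lies on the line at the bright end in both populations.

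The 10 genes that rose most were all genes of secreted proteins. Col3a1, the chain of type III collagen, read 13.54 and 13.89 in CD51+ BMSCs, against 2.51 and 2.71 in CD45+ cells, a difference of 11.11 ± 0.16 (SE, n = 2 each, adjusted p = 2.49e-07). Fmod and Dcn encode small proteoglycans that bind collagen fibrils, and they rose by 10.22 and 10.16. Dcn read 14.28 and 14.38 in CD51+ BMSCs, against 3.9 and 4.44 in CD45+ cells, among the brightest values of the stromal arrays. Prg4 (the joint lubricant lubricin), Ccn2 (a matricellular growth factor), Mgp (an inhibitor of calcification) and Pcolce2 (an enhancer of collagen processing) rose by 10.07, 9.88, 9.86 and 9.65. Serping1 (the inhibitor of complement C1), Fstl1 (a follistatin-like protein) and Igfbp5 (a binding protein of insulin-like growth factors) rose by 9.61, 9.59 and 9.56. On the CD45+ arrays none of the 10 exceeded the 4.44 of Dcn on array 2.

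The 10 genes that fell most belonged to lymphocytes, basophils and antigen presentation. Iglv1 and Ighv14-2 encode variable segments of antibody chains and fell by 7.29 and 7.17, although probes for antibody genes may read several members of the family. Fcer1a, the alpha chain of the IgE receptor of basophils and mast cells, read 2.63 and 2.55 in CD51+ BMSCs, against 9.51 and 9.6 in CD45+ cells (adjusted p = 2.71e-07). Ms4a2, another chain of that receptor, and Mcpt8, a basophil protease, fell by 5.98 and 6.58. Fcmr (the Fc receptor of IgM), Ms4a1 (the B cell antigen CD20) and Ltb (lymphotoxin beta) fell by 6.76, 6.36 and 6.01. Gzma, a protease of cytotoxic granules, read 3.26 and 3.19 in CD51+ BMSCs, against 9.18 and 9.08 in CD45+ cells. H2-Ob, a regulator of peptide loading on MHC class II, completed the 10 with a fall of 6.4.

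**Figure D2:**
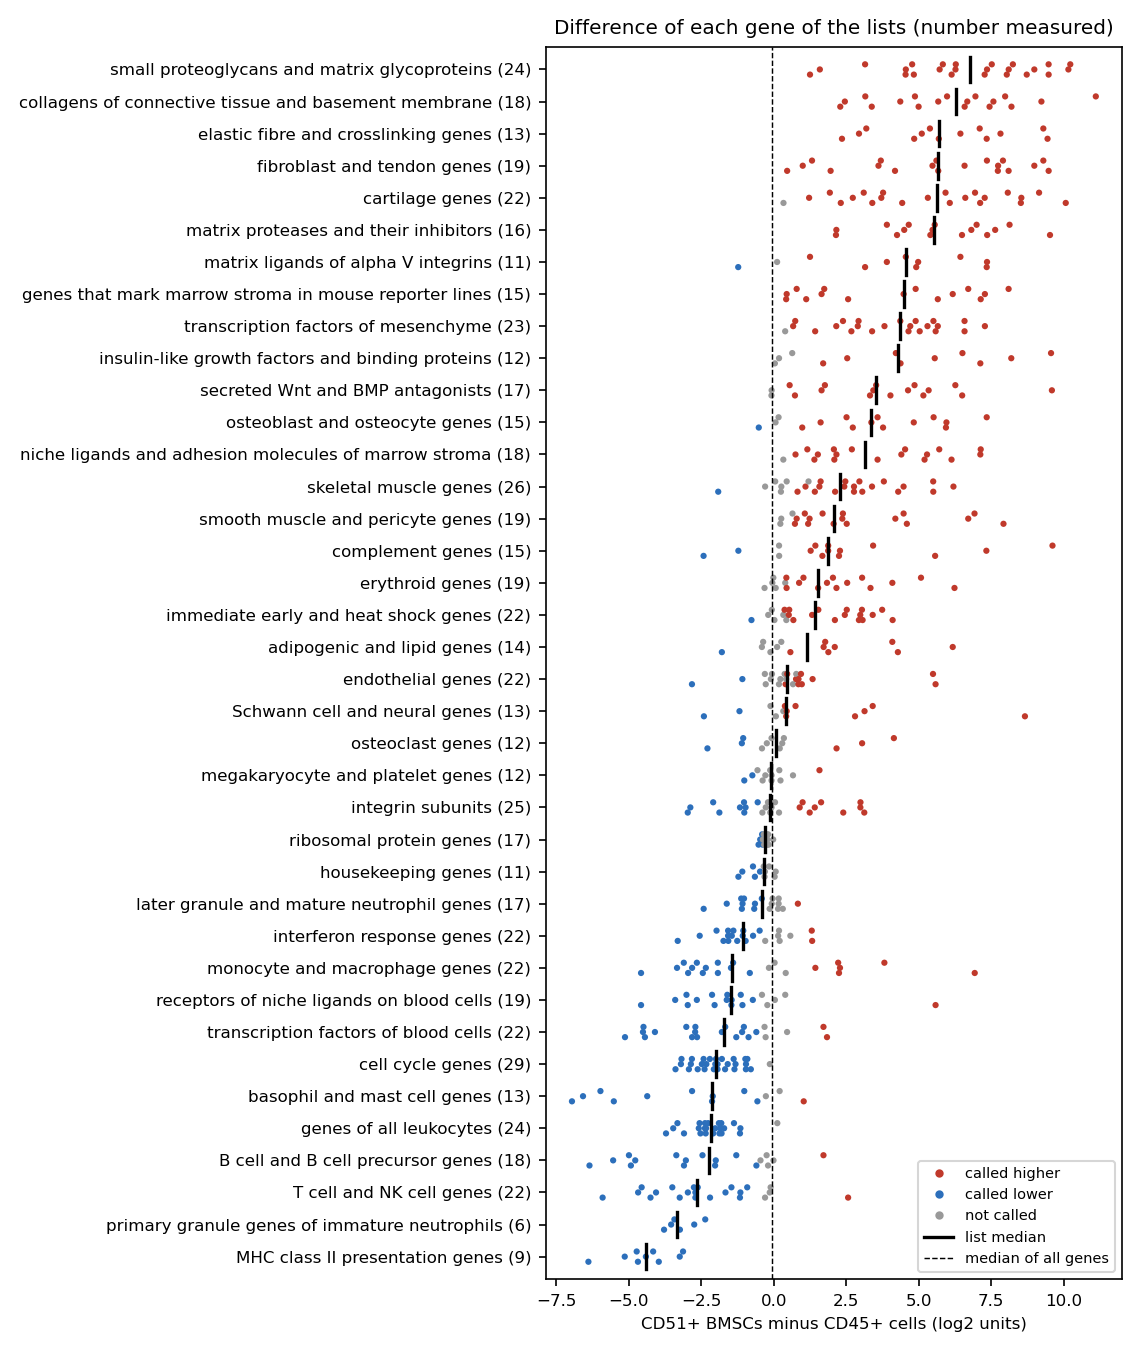
Difference of each measured gene of 38 lists, CD51+ BMSCs minus CD45+ cells in log2 units, with 1 point per gene, a black bar at the median of each list and a dashed line at the median of all genes (-0.07). The lists of collagens, matrix glycoproteins, elastic fibres and matrix proteases lie wholly to the right with medians above 5. The matrix ligands of alpha V integrins reach to both sides (median 4.55). MHC class II genes lie wholly to the left, and ribosomal protein genes stay within 1 unit of the dashed line.

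Every measured collagen of the list rose, 18 of 18, against 20.6% of all genes, with a median difference of 6.28. The fibril-forming chains Col1a1, Col1a2 and Col5a2 rose by 5.97, 6.95 and 8.20. Col6a3, a chain of the beaded filaments around cells, read 12.03 and 12.22 in CD51+ BMSCs, against 2.90 and 2.89 in CD45+ cells. The basement membrane chains Col4a1 and Col4a2 rose by 7.57 and 6.58. Small rises in the list were those of Col12a1 (2.29) and Col18a1 (2.45). Each of the 18 calls held in all 4 fits that left out 1 array, and 5 of the 18 held with all 11 arrays. Col1a2 read 13.52 and 13.78 in CD51+ BMSCs, against 6.84 and 6.54 in CD45+ cells.

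The proteins that bind and cross-link these fibres moved the same way. All 24 small proteoglycans and matrix glycoproteins rose (median 6.77), and all 24 calls held without any 1 array and 11 with all 11 arrays. Dpt, Ogn and Lum, which bind collagen or TGF-beta, rose by 9.48, 9.48 and 8.98. Sparc, a glycoprotein of bone and connective tissue, read 13.45 and 13.56 in CD51+ BMSCs, against 5.39 and 5.13 in CD45+ cells. The rise was least for Fn1, fibronectin, which read 12.90 and 13.12 in CD51+ BMSCs, against 11.92 and 11.60 in CD45+ cells and was bright in both populations. The elastic fibre list rose in 13 of 13 members (median 5.69, 11 with all 11 arrays), with Efemp1, Mfap5 and Fbln2, proteins of microfibrils and elastic fibres, higher by 9.44, 9.30 and 7.82. Eln, elastin itself, rose by 3.19, a call that ended without CD45+ array 1 (adjusted p = 0.0519) or array 2 (0.0544). Matrix proteases and their inhibitors rose in 16 of 16 (median 5.51, 8 with all 11 arrays). Pcolce, which speeds the trimming of procollagen, read 12.66 and 12.97 in CD51+ BMSCs, against 3.27 and 3.30 in CD45+ cells, and the proteases Adamts1, Mmp2 and Adamts5 rose by 8.13, 7.63 and 7.36.

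The integrin list, in contrast, split evenly, with 9 of 25 measured subunits higher, 9 lower and 7 not called (median -0.13). Of all genes 20.6% were higher and 27.6% were lower. With all 11 arrays 3 subunits were higher and 3 lower, against 4.27% and 3.86% of all genes. Itgb5, a beta chain that pairs with alpha V, read 9.65 and 9.81 in CD51+ BMSCs, against 6.71 and 6.52 in CD45+ cells (adjusted p = 5.18e-06). Itgb8, another partner, rose by 2.99, Itga5, the alpha chain of the fibronectin receptor, by 2.98, and Itga10, of a collagen receptor, by 2.39. Itgb3 read 7.69 and 7.69 in CD51+ BMSCs, against 7.87 and 7.67 in CD45+ cells. Itgb6 read 3.12 and 3.18 in CD51+ BMSCs, against 3.18 and 3.04 in CD45+ cells. These partners were not called (adjusted p = 0.677 and 0.84). Itgb1, the shared chain of many receptors and also a partner of alpha V, was named after its values were seen. It rose by 0.99, and the call ended without CD45+ array 1 (0.0507) or array 2 (0.0604). Several subunits that fell are known from leukocytes. Itga4 and Itgb7, which form a homing receptor of lymphocytes, fell by 2.97 and 2.88, and Itgal, the alpha chain of LFA-1, fell by 2.09. Of the matrix ligands of alpha V integrins, 9 of 11 rose (median 4.55), 2 of them with all 11 arrays. Postn (periostin), Ibsp (bone sialoprotein) and Ltbp1, which anchors latent TGF-beta, rose by 7.35, 7.34 and 6.43. Tgfb1 itself read 5.42 and 4.77 in CD51+ BMSCs, against 6.34 and 6.30 in CD45+ cells and fell, a call that ended without CD45+ array 1 (0.133) or array 2 (0.132).

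Niche factors were higher in the stromal cells in 17 of 18 measured genes (median 3.13), against 20.6% of all genes. Receptors on blood cells were lower in 14 of 19 (median -1.47), against 27.6% of all genes. Their list also holds receptors whose ligands are not among the listed factors, such as Csf3r, Il3ra and Epor. With all 11 arrays 5 of the 17 factors and 7 of the 14 receptors were called, where 4.27% of all genes were higher and 3.86% lower. Cxcl12, the chemokine that retains blood stem cells and B cell precursors, read 10.75 and 10.80 in CD51+ BMSCs, against 3.48 and 3.80 in CD45+ cells (adjusted p = 3.73e-07). Its receptor Cxcr4 read 8.22 and 7.92 in CD51+ BMSCs, against 9.79 and 10.45 in CD45+ cells, a difference of -2.05 ± 0.23 (SE), and its call ended without CD51+ array 2 (0.0571). Kitl, stem cell factor, read 8.94 and 9.11 in CD51+ BMSCs, against 3.32 and 3.32 in CD45+ cells, whereas its receptor Kit fell by 2.13. Csf1, the growth factor of macrophages, rose by 2.69, and its receptor Csf1r read 9.44 and 8.88 in CD51+ BMSCs, against 11.97 and 11.67 in CD45+ cells. In these 3 pairs the ligand was higher and the receptor lower in CD51+ BMSCs.

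In the remaining pairs some calls rested on single arrays. Il7, a factor for B cell precursors, rose by 2.07 and Il7r fell by 3.40. Jag1, a ligand of Notch receptors, rose by 3.58 and Notch1 fell by 1.46. Vcam1, an adhesion molecule for leukocytes, read 8.44 and 8.20 in CD51+ BMSCs, against 7.30 and 7.84 in CD45+ cells and rose by 0.75, a call that ended in each of the 4 fits without 1 array (adjusted p between 0.0563 and 0.243). Its partner Itga4 fell, as given above. Angpt1, a ligand of Tek, rose by 1.15, but the call held only without CD51+ array 1 (0.0267) and ended without each other array (up to 0.162). Tek, known as the angiopoietin receptor of endothelial cells, was the 1 receptor that rose, with 7.91 and 8.12 in CD51+ BMSCs, against 2.50 and 2.38 in CD45+ cells. Tnfsf11, the osteoclast factor RANKL, rose by 1.40 at a low level. Its receptor gene Tnfrsf11a was not called (3.86 and 4.03 in CD51+ BMSCs, against 4.24 and 4.47 in CD45+ cells, adjusted p = 0.0562). The other probe sets of Tnfsf11, Il7 and Angpt1 were not called, with differences of 0.06, 0.54 and -0.09. Leaving out a CD45+ array also ended the calls of Kit (0.106 and 0.15) and Il7r (0.0788 and 0.0934), and leaving out CD45+ array 2 ended that of Il7 (0.0639). Other secreted factors of the list rose further, with Igf1 higher by 7.12, the chemokine Cxcl14 by 6.13, Bmp4 by 5.28 and Il6 by 4.53. Dll1, a ligand of Notch, was not called (5.64 and 5.34 in CD51+ BMSCs, against 5.25 and 5.08 in CD45+ cells). Of the receptors, Ccr2, which draws monocytes to Ccl2, fell most (-4.58), while Ccl2 rose by 4.40.

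**Figure D3:**
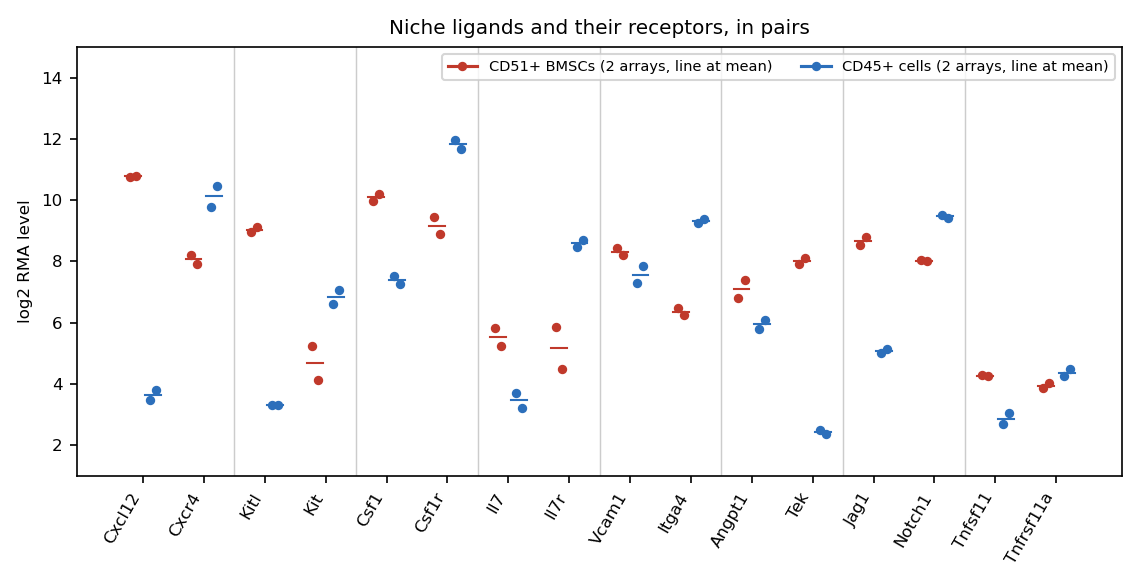
Log2 RMA level of 8 niche ligands and their receptors, ligand first in each pair, with 1 point per array and a line at the mean of 2 arrays, CD51+ BMSCs in red left of CD45+ cells in blue. On the probe sets shown, the 8 ligands were called higher in CD51+ BMSCs and 6 receptors lower. Tnfrsf11a was not called, and Tek, at 7.91 and 8.12 in CD51+ BMSCs, was higher.

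Genes that mark marrow stroma in reporter mice rose in 15 of 15 measured members (median 4.48), of which 11 held without any 1 array and 1 with all 11 arrays. Lepr, the leptin receptor of perivascular stroma, read 8.68 and 8.84 in CD51+ BMSCs, against 2.54 and 2.64 in CD45+ cells, Pdgfrb rose by 6.71, and Prrx1, a transcription factor of limb mesenchyme, by 7.28. Grem1, a BMP antagonist, and Gli1, an effector of hedgehog signalling, rose by 1.65 and 1.74. Nes, the gene of nestin, was dim, with 5.83 and 5.66 in CD51+ BMSCs, against 5.26 and 5.34 in CD45+ cells, and its call ended in each fit without 1 array (adjusted p between 0.0683 and 0.161). Foxc1 and Ebf3, transcription factors that maintain the stromal niche, rose by 5.65 and 4.89.

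Bone, cartilage and tendon genes were all represented. Of the osteoblast and osteocyte list 12 of 15 rose (median 3.36), 2 of them with all 11 arrays. Ibsp read 10.29 and 10.36 in CD51+ BMSCs, against 2.97 and 3.01 in CD45+ cells, Dmp1, a matrix protein of osteocytes, rose by 5.94, and Tnfrsf11b, the RANKL decoy receptor, by 5.51. Cdh11 and Pth1r, a cadherin and the parathyroid hormone receptor of osteoblasts, rose by 5.95 and 4.83. Sost, a Wnt inhibitor from osteocytes, was dim in both (3.85 and 3.63 in CD51+ BMSCs, against 4.15 and 4.37 in CD45+ cells), and its small fall was called in none of the fits without 1 array (up to 0.193). Of the cartilage list 21 of 22 rose (median 5.62), 11 of them with all 11 arrays. Comp, Cilp and Chad, cartilage matrix proteins, rose by 9.15, 8.54 and 8.07, and Col2a1, the main collagen of cartilage, read 11.69 and 12.32 in CD51+ BMSCs, against 3.66 and 3.31 in CD45+ cells. Sox9, its transcription factor, rose by 3.77. Matn1 was not called (2.74 and 2.94 in CD51+ BMSCs, against 2.46 and 2.57 in CD45+ cells).

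Fibroblast and tendon genes rose in 19 of 19 (median 5.67), of which 17 held without any 1 array and 7 with all 11 arrays. Has1, a hyaluronan synthase, read 12.30 and 12.25 in CD51+ BMSCs, against 4.51 and 4.23 in CD45+ cells, Fap and Thbs4, a protease of activated fibroblasts and a tendon glycoprotein, both rose by 7.73, and Clec3b, tetranectin, by 7.35. Pi16 and Dpp4, markers of fibroblasts around vessels, rose by 3.69 and 1.96, but for Dpp4 another probe set moved the other way. Tnmd, a membrane protein of tendon, read 8.50 and 8.44 in CD51+ BMSCs, against 4.15 and 4.43 in CD45+ cells. S100a4 was bright in both, with 12.67 and 12.49 in CD51+ BMSCs, against 11.60 and 11.57 in CD45+ cells. Of the adipogenic list 8 of 14 rose and 1 fell (median 1.14), against 20.6% and 27.6% of all genes. With all 11 arrays 1 was called in each direction, against 4.27% and 3.86% of all genes. Adipoq, adiponectin, read 7.22 and 7.03 in CD51+ BMSCs, against 2.97 and 3.11 in CD45+ cells, Fabp4, a fatty acid carrier, rose by 4.28, and Lpl, lipoprotein lipase, by 2.10. Pparg, the fat cell transcription factor, was not called (4.0 and 3.93 in CD51+ BMSCs, against 3.70 and 4.0 in CD45+ cells), and Cebpa, which also serves in myeloid cells, fell by 1.79. Smooth muscle and pericyte genes rose in 16 of 19 (median 2.06), 7 of them with all 11 arrays. Cald1 (caldesmon), Rgs5 (a pericyte regulator of G proteins), Abcc9 and Cspg4 rose by 7.92, 6.92, 4.59 and 4.48. Myh11 and Cnn1, contractile genes of mature smooth muscle, were not called, with Myh11 at 4.70 and 4.54 in CD51+ BMSCs, against 4.51 and 4.28 in CD45+ cells.

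Transcription factors divided by lineage. Of the mesenchymal factors 22 of 23 rose (median 4.36), 19 of them in every fit without 1 array and 12 with all 11 arrays. Prrx1, Meox2, Ebf2, Zfhx4 and Snai2 rose by 7.28, 6.58, 6.58, 5.58 and 5.50. Meox2 read 9.62 and 9.58 in CD51+ BMSCs, against 3.05 and 3.0 in CD45+ cells. Of the blood factors 17 of 22 fell and 2 rose (median -1.74), and with all 11 arrays 9 fell and 0 rose. Ikzf3, a factor of lymphocytes, read 3.62 and 3.39 in CD51+ BMSCs, against 8.48 and 8.80 in CD45+ cells (adjusted p = 1.29e-06), and Bcl11a, Gfi1, Irf8 and Lyl1 fell by 4.52, 4.5, 4.45 and 4.10. Spi1, the myeloid factor PU.1, fell by 1.68. The pair that rose were Ebf1 and Klf1. Ebf1 is known in B cell development and in mesenchyme, and it read 9.82 and 10.03 in CD51+ BMSCs, against 8.05 and 8.38 in CD45+ cells. Klf1, of red cell precursors, rose by 1.83, and its call ended without CD45+ array 1 (0.0676) or array 2 (0.0652).

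Of 24 measured genes that leukocytes share, 23 were lower in CD51+ BMSCs, where 27.6% of all genes were, and the median difference was -2.18. With all 11 arrays 13 were lower. Ptpn6, Vav1, Cd37 and Dock2, signalling and membrane proteins of leukocytes, fell by 3.33, 3.10, 3.47 and 2.59. Vav1 read 4.94 and 4.53 in CD51+ BMSCs, against 7.85 and 7.82 in CD45+ cells. Cd48 fell by 3.72, a call that ended without CD45+ array 1 (0.0825) or array 2 (0.0855). Plek, a signalling protein of myeloid cells and platelets, was not called (10.48 and 10.60 in CD51+ BMSCs, against 10.41 and 10.43 in CD45+ cells, 95% confidence interval of the difference -0.17 to 0.41). The mean level of the 24 genes was 8.53 and 8.38 on the CD51+ arrays, against 10.62 and 10.61 on the CD45+ arrays. On the Osx+ arrays of the series, cells of the osteoblast lineage sorted by a reporter, it was 4.07 and 4.94, and on the other 5 stromal arrays it lay between 5.11 and 6.45. In bulk RNA, fewer cells of a type and less RNA per cell cannot be told apart.

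Genes of the blood lineages had differences of several sizes. Primary granule genes, which neutrophil precursors transcribe, fell in 6 of 6 (median -3.34), 3 of them with all 11 arrays. Elane and Ms4a3 fell by 3.54 and 3.79, and Mpo, myeloperoxidase, read 11.12 and 9.44 in CD51+ BMSCs, against 12.99 and 13.06 in CD45+ cells. The calls of Mpo, Prtn3 and Ctsg ended without CD45+ array 1 or 2, with Mpo at an adjusted p of 0.151 and 0.163. CD51+ array 1 stood above array 2 for 5 of the 6, by a median of 1.15 units over the list. Genes of later granules and mature neutrophils fell in 9 of 17 and rose in 1 (median -0.42), against 27.6% and 20.6% of all genes. With all 11 arrays 1 fell, near the 3.86% of all genes. The falls numbered 5 without either CD45+ array, and 6 and 7 without CD51+ array 1 and array 2, and the rise, of Clec4d, was called only without CD51+ array 1. S100a8 and S100a9, which form calprotectin, read 14.03 and 14.03 on the CD51+ arrays and 14.19 and 14.17 on the CD45+ arrays for S100a8 and 14.59 and 14.66 on the CD51+ arrays and 14.68 and 14.72 on the CD45+ arrays for S100a9. Camp read 13.72 and 13.69 in CD51+ BMSCs, against 13.66 and 13.84 in CD45+ cells, with a 95% confidence interval of the difference of -0.35 to 0.26. Ngp, Lcn2, Ltf and Il1b were not called either. S100a8 and S100a9 lie close to the highest values on the arrays (14.66 to 14.82), and whether signal was saturated there was not tested. Members at lower levels differed in size and direction. Cxcr2, a chemokine receptor, read 6.23 and 6.82 in CD51+ BMSCs, against 9.0 and 8.89 in CD45+ cells, the largest fall of the list (-2.42). Csf3r, the receptor of G-CSF, fell by 1.63, Padi4, a histone-modifying enzyme, fell by 1.08, and Pglyrp1, a granule protein, fell by 1.13, while Clec4d, a lectin receptor, rose by 0.83.

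T cell and NK cell genes fell in 18 of 22 (median -2.67), 13 of them with all 11 arrays. Nkg7, Ccl5, Cd3g and Klrd1 fell by 4.68, 4.56, 4.26 and 4.07, and Cd3g read 2.88 and 2.78 in CD51+ BMSCs, against 6.91 and 7.26 in CD45+ cells. Thy1, which fibroblasts also carry, rose by 2.56. B cell genes fell in 13 of 18 (median -2.25), 6 of them in every fit without 1 array and 11 with all 11 arrays. Bank1 and Cd22, of mature B cells, fell by 5.55 and 4.78. The precursor genes Rag1, Rag2, Vpreb1 and Igll1 were not called, and Rag1 read 6.17 and 3.33 in CD51+ BMSCs, against 4.39 and 5.14 in CD45+ cells, with the 2 stromal arrays further apart than the populations. CD51+ array 1 stood above array 2 for 16 of the 18 B cell genes, by a median of 0.77 units over the list. Basophil and mast cell genes fell in 10 of 13 (median -2.13), 6 of them with all 11 arrays, led by Fcer1a and Mcpt8, with Cpa3 and Cd200r3 lower by 5.52 and 4.37. Hdc, which makes histamine, rose by 1.03, a call that ended without CD45+ array 1 (0.0621).

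Monocyte and macrophage genes split, with 13 of 22 lower and 6 higher (median -1.44). With all 11 arrays 8 were lower and 4 higher. Adgre1, the macrophage antigen F4/80, read 5.66 and 6.17 in CD51+ BMSCs, against 9.12 and 9.39 in CD45+ cells, and Cx3cr1 and Mpeg1 fell by 3.11 and 2.96. Cd14, the co-receptor of endotoxin, read 12.06 and 12.18 in CD51+ BMSCs, against 8.33 and 8.29 in CD45+ cells, and Axl, a receptor tyrosine kinase, rose by 6.93. Axl is also known in fibroblasts. The C1q chains C1qa and C1qb, which resident macrophages make, rose by 2.28 and 2.25, and the call of C1qb ended without CD45+ array 2 (0.0519). Osteoclast genes were near the shares of all genes (20.6% higher and 27.6% lower), with 3 of 12 higher and 3 lower (median 0.06), and 1 was lower without either CD45+ array and 0 with all 11 arrays. Ctsk, cathepsin K, read 9.90 and 9.90 in CD51+ BMSCs, against 5.78 and 5.74 in CD45+ cells, while Acp5, the osteoclast acid phosphatase, fell by 2.29 and Dcstamp, needed for fusion of osteoclasts, was not called. Of the megakaryocyte list 1 of 12 rose (Gp1bb, 1.57) and 2 fell, counts below the shares of all genes (20.6% higher and 27.6% lower). Pf4 was not called (6.6 and 4.97 in CD51+ BMSCs, against 6.24 and 6.46 in CD45+ cells).

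Genes of MHC class II presentation fell together, 9 of 9 (median -4.41), in all 4 fits without 1 array and also with all 11 arrays in the model. H2-Ob read 3.62 and 2.51 in CD51+ BMSCs, against 9.48 and 9.44 in CD45+ cells (adjusted p = 1.06e-05). H2-DMb2 and H2-Oa, of the peptide loading machinery, fell by 5.15 and 4.73, and the classical chains H2-Eb1, H2-Ab1 and H2-Aa by 4.69, 4.41 and 4.17. Ciita, the coactivator known to switch on this gene set, read 4.18 and 3.86 in CD51+ BMSCs, against 6.89 and 7.42 in CD45+ cells. Cd74, the invariant chain, fell by 3.97. The list mean was 6.22 and 5.69 on the CD51+ arrays, against 10.35 and 10.43 on the CD45+ arrays.

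The promoters of these genes are shown because the members moved together. RefSeq promoters of mouse build GRCm38.p6, from 250 bases before to 50 after a start, were matched for 6 of the 9 genes, and TGATTGG, the letters of the Y box, and ATGATG, a run within the X box of several of these genes, were sought on both strands, with no overlap between the motifs. The 6 genes have 7 promoters. The Y box letters stood in 5 of the 7 and in 7.82% of all 32851 promoters, and ATGATG in 3 of the 7 and in 11.2% of all. Matches are capitals in the following 80 bases of each gene, all on chromosome 17, upstream of the start and read along the gene.
H2-Ob, chr17:34238793-34238872, plus strand: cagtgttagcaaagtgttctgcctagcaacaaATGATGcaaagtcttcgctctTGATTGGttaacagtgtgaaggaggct
H2-DMb2, chr17:34145104-34145183, plus strand: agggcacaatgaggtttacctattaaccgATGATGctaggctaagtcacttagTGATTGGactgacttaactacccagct
H2-Eb1, chr17:34305753-34305832, plus strand: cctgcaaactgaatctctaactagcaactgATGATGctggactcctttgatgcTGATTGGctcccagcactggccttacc
H2-Oa, chr17:34092281-34092360, plus strand: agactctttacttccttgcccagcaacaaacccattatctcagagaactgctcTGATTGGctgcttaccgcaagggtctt
H2-Aa, chr17:34287847-34287926, minus strand: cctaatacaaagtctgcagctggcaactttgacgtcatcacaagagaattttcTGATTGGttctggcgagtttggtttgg
In H2-Ob, H2-DMb2 and H2-Eb1 both motifs lay on the same strand, 15, 18 and 17 bases apart. A match describes the letters and not a bound factor.

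Erythroid genes went the other way, with 14 of 19 higher and 0 lower (median 1.53), although Ter119, a red cell antigen, had been used to remove red cells. Slc4a1, the anion exchanger band 3, read 10.66 and 10.07 in CD51+ BMSCs, against 4.04 and 4.22 in CD45+ cells (adjusted p = 1.59e-06). Alas2, the first enzyme of heme synthesis in red cells, read 9.58 and 8.80 in CD51+ BMSCs, against 4.17 and 4.07 in CD45+ cells, and Hemgn, a nuclear factor of red cell precursors, read 9.34 and 8.55 in CD51+ BMSCs, against 4.68 and 5.04 in CD45+ cells. The Rhesus proteins Rhag and Rhd rose by 3.33 and 2.53, and Car2, a carbonic anhydrase also found in osteoclasts, by 3.04. Each of these values was higher on CD51+ array 1 than on array 2, as for 16 of the 19 genes. Of the 14 calls 6 held in every fit without 1 array and 4 held with all 11 arrays. Gata1, Epor and Tfrc, which red cell precursors share with other cells, were not called. The globin gene Hba-a1 read near the bottom on its only probe set with 1 symbol (3.46 and 2.98 in CD51+ BMSCs, against 3.27 and 3.20 in CD45+ cells), while Hbb-b2 read 6.07 and 6.52 in CD51+ BMSCs, against 2.89 and 2.81 in CD45+ cells, on a probe set that may also read other beta globins, and was not called on another. Globin probe sets with several symbols were not named. On the other stromal arrays the list mean lay between 4.75 and 6.49, against 7.12 and 6.69 on the CD51+ arrays and 5.06 and 5.10 on the CD45+ arrays.

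Promoters of 9 of the 14 erythroid genes that rose were matched. The letters AGATAA or TGATAA, the core bound by GATA factors, stood on either strand in 7 of the 9 and in 18.6% of all promoters. They also stood in 4 of the 7 promoters of the MHC class II genes, which fell. The match was thus not particular to the erythroid genes. Shown are 80 bases of Alas2 and of the Rhesus genes, whose windows end before the start of the gene, unlike that of Hemgn, which also has a match, with the match in capitals (TTATCT and TTATCA are the motif on the other strand).
Alas2, chrX:150547277-150547356, plus strand: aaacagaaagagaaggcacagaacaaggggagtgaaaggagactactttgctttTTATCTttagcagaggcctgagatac
Rhag, chr17:40811064-40811143, plus strand: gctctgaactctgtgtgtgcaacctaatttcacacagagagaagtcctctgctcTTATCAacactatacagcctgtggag
Rhd, chr4:134864439-134864518, plus strand: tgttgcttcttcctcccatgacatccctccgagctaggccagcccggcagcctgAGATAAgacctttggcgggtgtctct

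**Figure D4:**
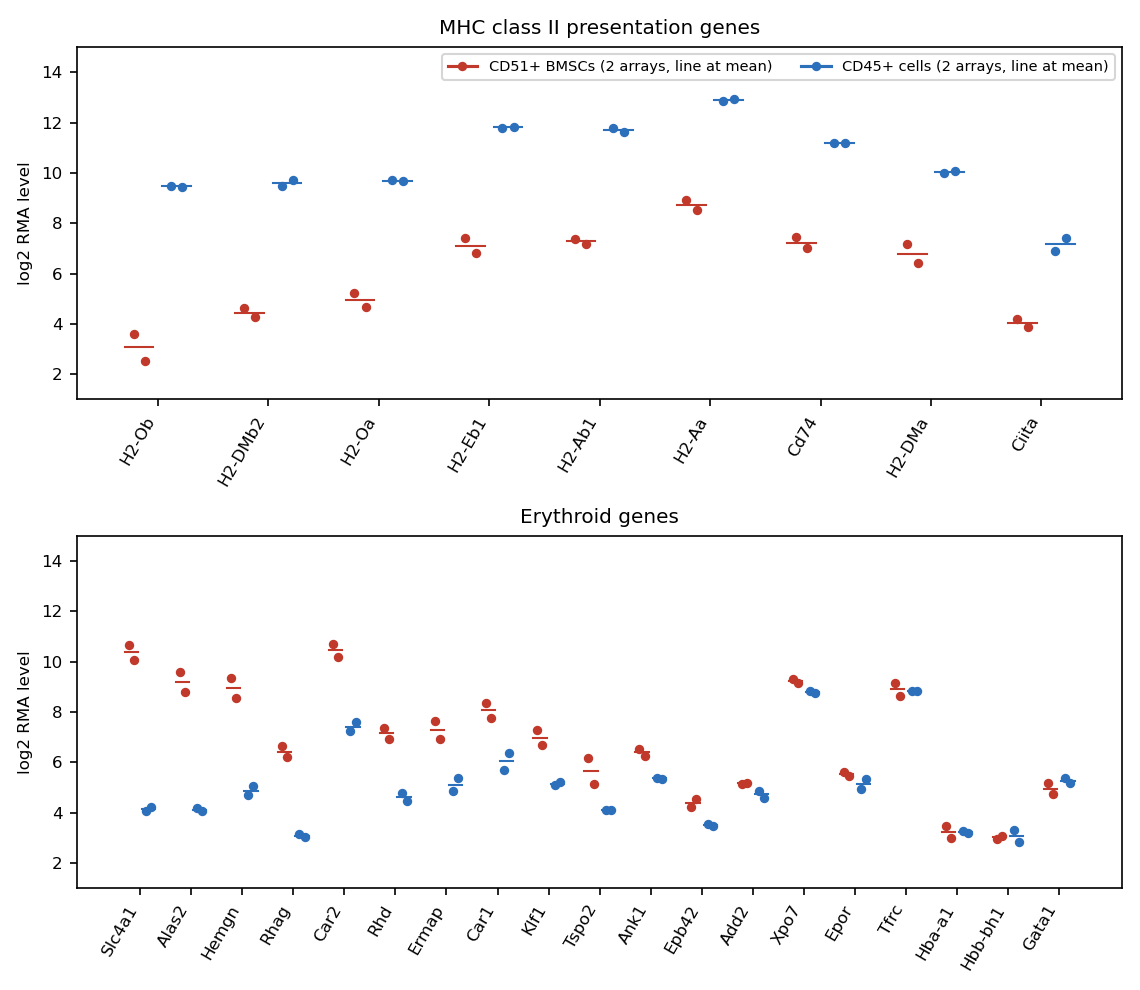
Log2 RMA level of 9 MHC class II presentation genes (top) and 19 erythroid genes (bottom), with 1 point per array and a line at the mean of 2 arrays, CD51+ BMSCs in red left of CD45+ cells in blue. The 9 class II genes lie lower in red without overlap (74% of all genes do not overlap), and Slc4a1, Alas2 and Hemgn lie 4 units or more higher in red.

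Markers of cells that the stromal gate could hold besides marrow stroma were measured as well. Skeletal muscle genes rose in 19 of 26 and fell in 1 (median 2.27). Myh1, a myosin of fast fibres, read 7.79 and 8.83 in CD51+ BMSCs, against 2.15 and 2.09 in CD45+ cells, Acta1, skeletal actin, read 10.12 and 11.09 in CD51+ BMSCs, against 5.15 and 5.07 in CD45+ cells, and Tnnc2, fast troponin C, rose by 5.50. CD51+ array 2 was above array 1 for 22 of the 26 genes, by a median of 0.84 units over the list. Pax7 and Myf5, transcription factors of muscle stem cells, rose by 3.05 and 2.76 and were higher on array 1. The list mean was 5.83 and 6.41 on the CD51+ arrays, against 3.9 and 3.88 on the CD45+ arrays, and between 3.62 and 4.72 on the other 7 arrays. Of the 19 calls 10 held in every fit without 1 array and 14 held with all 11 arrays.

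Of the endothelial genes 10 of 22 were higher, against 20.6% of all genes, and 2 were lower (median 0.44). The higher calls numbered 4 without CD51+ array 2, 5 without CD45+ array 1, 2 without CD45+ array 2 and 2 with all 11 arrays. Tek and Ramp2, a co-receptor for adrenomedullin, rose by 5.58 and 5.49, and at lower levels Gpihbp1 and Plvap rose by 1.34 and 0.96. Kdr, Tie1 and Flt1 were not called, and Cdh5 fell by 1.09. Kdr read 5.89 and 6.14 in CD51+ BMSCs, against 5.93 and 5.74 in CD45+ cells. The call of Cdh5 held only without CD45+ array 1 (0.0368). Of the Schwann cell and neural list 8 of 13 rose and 2 fell (median 0.42), against 20.6% and 27.6% of all genes. The rises numbered 4 without CD51+ array 1, CD45+ array 1 or CD45+ array 2, 5 without CD51+ array 2 and 3 with all 11 arrays. Pmp22, a myelin protein that fibroblasts also express, read 11.50 and 11.40 in CD51+ BMSCs, against 2.63 and 2.95 in CD45+ cells, and S100b and Cdh19 rose by 2.80 and 3.13, while Sox10, which defines Schwann cells, was not called (5.67 and 5.50 in CD51+ BMSCs, against 5.39 and 5.12 in CD45+ cells). The part of these other cells in the differences was not tested.

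**Figure D5:**
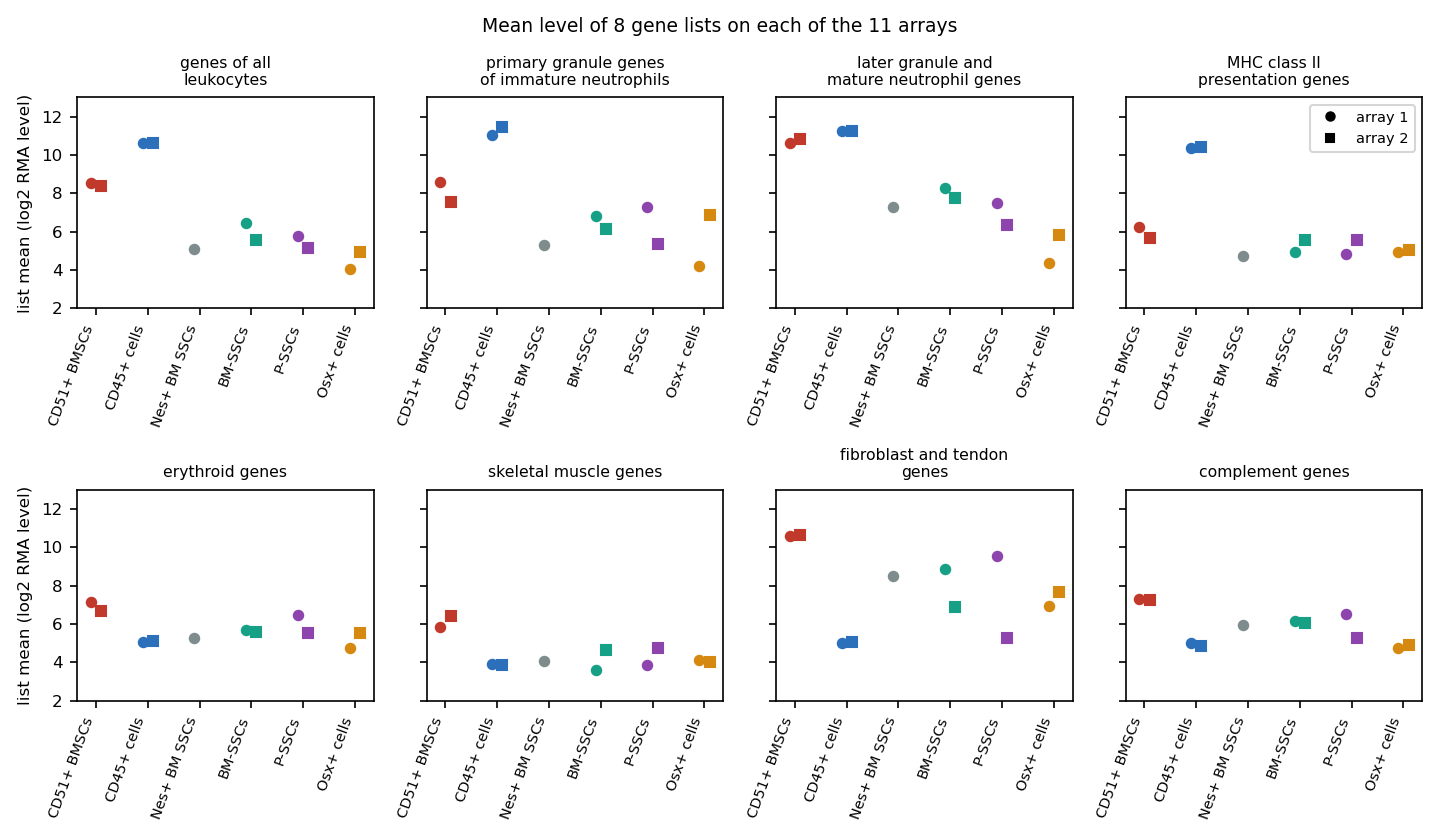
Mean log2 RMA level of 8 gene lists on each of the 11 arrays, by population, where a circle is array 1 and a square array 2. The CD51+ arrays stand between the CD45+ arrays and the other stromal arrays for genes of all leukocytes (8.53 and 8.38), near the CD45+ arrays for later neutrophil genes, and above all other arrays for skeletal muscle genes (5.83 and 6.41).

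Cell cycle genes were lower in CD51+ BMSCs in 28 of 29 measured genes (median -2.0). Kif20a, Aurkb and Plk1, genes of mitosis, fell by 3.39, 3.21 and 3.19, and Kif20a read 4.06 and 4.33 in CD51+ BMSCs, against 7.56 and 7.61 in CD45+ cells. Mki67, the proliferation antigen Ki-67, read 9.38 and 9.07 in CD51+ BMSCs, against 11.01 and 10.81 in CD45+ cells. Pcna, a clamp of DNA replication, was bright and not called (11.13 and 10.77 in CD51+ BMSCs, against 11.08 and 11.10 in CD45+ cells). Of the 28 calls 13 held in every fit without 1 array and 12 with all 11 arrays. The calls of the Mcm helicase genes Mcm2 to Mcm7 ended without CD45+ array 1 (adjusted p up to 0.188, for Mcm2) or array 2 (0.209), and that of Mcm4 also without CD51+ array 2 (0.0653). CD51+ array 2 was the lower of the stromal arrays for 26 of the 29 genes.

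Immediate early and heat shock genes rose in 16 of 22 and fell in 1 (median 1.43), against 20.6% and 27.6% of all genes. Socs3, Ier3, Egr2 and Atf3 rose by 4.10, 3.74, 3.41 and 3.04, and Egr1 read 13.58 and 13.63 in CD51+ BMSCs, against 10.65 and 10.61 in CD45+ cells. Fos, Jun, Ier2 and Dusp1 were bright in both populations, with Fos at 13.70 and 13.85 in CD51+ BMSCs, against 13.10 and 13.10 in CD45+ cells and a difference of 0.67 ± 0.12 (SE). Its call ended without CD45+ array 1 (0.067) or array 2 (0.0718). Hspa1a rose by 3.06, but its CD45+ arrays were far apart (11.52 and 11.44 in CD51+ BMSCs, against 7.61 and 9.23 in CD45+ cells), and the call ended without CD51+ array 1 (0.104) or array 2 (0.105). With all 11 arrays 0 of these calls held, while without array 2 of the P-SSCs and BM-SSCs 13 genes were called higher and 1 lower. Such genes are known to respond to tissue digestion, and the part of the isolation in these differences was not tested. Ribosomal protein genes had a median of -0.30, with 4 of 17 lower, near the 27.6% of all genes, and 0 were called in any fit without 1 array. Housekeeping genes had a median of -0.35, with 5 of 11 lower and 1 without either CD45+ array. Eef1a1, a translation factor, read 13.68 and 13.64 in CD51+ BMSCs, against 13.66 and 13.61 in CD45+ cells, and Rps4x read 13.43 and 13.40 in CD51+ BMSCs, against 13.48 and 13.39 in CD45+ cells. The sex-linked genes Xist, Eif2s3y, Uty and Kdm5d were not called, with Xist at 11.54 and 11.35 in CD51+ BMSCs, against 11.66 and 11.72 in CD45+ cells and Eif2s3y at 2.73 and 2.47 in CD51+ BMSCs, against 2.90 and 2.77 in CD45+ cells.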

How the data were processed

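The deposited log2 values were made by the authors from scanned Affymetrix mouse arrays by RMA, run in R and in Partek GS, which corrects background, equalizes the distributions of the arrays and summarizes each probe set. The labels and methods name limma without a version. Whether all arrays were normalized together is not stated. The 4 arrays were fitted here with limma 3.58.1 in R 4.3.3 (lmFit and eBayes, 2 residual and 4.65 prior degrees of freedom), without a filter, over 45037 probe sets, with 64 control probe sets left out, and p-values were adjusted by Benjamini-Hochberg over all of them at 0.05. Where the text gives an adjusted p without an array, it is from this fit.

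Of the probe sets, 34945 carry 1 gene symbol in the platform annotation, 932 several and 9160 none. Each gene was read on its brightest probe set with 1 symbol. Named are the sort antigens, the 10 largest changes per direction, up to 6 called members per list, 8 ligand and receptor pairs, and bright members within 1 unit. Other members of the lists are named as examples chosen after their values were seen. The members and the 40 lists were chosen with earlier results of these data known. Lists are described by counts and medians only.

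The spread between arrays of a population was 0.187 units for CD51+ BMSCs and 0.169 units for CD45+ cells (root mean square SD), and 2 arrays a population limit the precision. The fit was checked on simulated arrays for the sign of known differences and their correlation with the estimates. Far fewer probe sets were changed there than were called here. That check therefore does not bear on the share of false calls in these data. Array numbers were not shown to pair the populations (correlation of deviations -0.098), and with 2 arrays a population this value cannot decide it. Alternatives were all 11 arrays, all but array 2 of the P-SSCs and BM-SSCs, quantile normalization, median centring, the brighter probe sets, a robust fit with a variance trend, a block for the array number, other thresholds, 1 probe set per gene and the omission of each array in turn. Chosen after seeing the data were the count of calls that held without any 1 array and the other probe sets of key genes.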

Additional observations from a re-analysis of the deposited data

How the results depend on the processing

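The count of 18689 called probe sets, of which 39.68% were higher in CD51+ BMSCs, fell to 2634 (50.42% higher) with all 11 arrays in one model, and was 16376 (40.4% higher) when the second array of the P-SSCs and that of the BM-SSCs were left out of it. It fell to 8926 (48.02%) with a difference of at least 1 unit and was 9145 (42.68%) of 18193 with 1 probe set per gene. Centring the arrays on their medians gave 35.69% higher and keeping the brighter probe sets 38.01%. Quantile normalization, the variance trend, unadjusted p-values and these last settings kept the count within 1.5 times. Leaving out 1 array gave between 8713 and 12388 calls, with 43.91% to 48.15% higher, the fewest without CD45+ array 2. With the array number as a replicate block 18787 probe sets were called (39.78% higher). The numbers were not shown to pair the arrays. Under the block 4 of the 265 genes named by the rule lost their call and 1 gained one.

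No call of a gene named by the rule reversed in the settings run. Of the 265 genes named by the rule, 102 lost their call with all 11 arrays, 13 without array 2 of the P-SSCs and BM-SSCs, and between 15 and 39 without 1 array. Of the 500 called genes of the lists 366 were called in every fit without 1 array, 221 with all 11 arrays and 471 without array 2 of the P-SSCs and BM-SSCs. Other probe sets of Dpp4, Ryr1, Mbp, Runx1 and Nfatc1 were called in the opposite direction. Of the 5 Itgav probe sets, the brightest is given in the text and the next rose by 0.92, while the other 3 were not called. Signal over background limits the dim genes, and saturation of the brightest was not tested.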

Other observations

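Other gene groups also differed. Complement genes were higher in CD51+ BMSCs in 11 of 15 measured members and lower in 2 (median 1.87), and beside Serping1 the proteases C1s1 and C1ra, which start the classical pathway, stood out. C1s1 read 10.68 and 10.74 in CD51+ BMSCs, against 3.62 and 3.14 in CD45+ cells, and C1ra read 10.25 and 10.41 in CD51+ BMSCs, against 4.77 and 4.77 in CD45+ cells. Cfb, of the alternative pathway, rose by 3.42, while Cfp, properdin, which leukocytes store, fell by 2.43. The list mean was 7.31 and 7.23 on the CD51+ arrays and 4.98 and 4.85 on the CD45+ arrays, and on the other 7 arrays it lay between 4.74 and 6.54.

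Insulin-like growth factors and their binding proteins rose in 9 of 12 (median 4.29). Igfbp6 read 12.13 and 12.13 in CD51+ BMSCs, against 3.77 and 4.11 in CD45+ cells, and Igfbp7, Igf2 and Igfbp3 rose by 6.51, 4.21 and 4.37, whereas the receptor Igf1r was not called (8.36 and 8.65 in CD51+ BMSCs, against 8.46 and 8.48 in CD45+ cells). Secreted Wnt and BMP antagonists rose in 15 of 17 (median 3.53). Wif1 and Sfrp4, which bind Wnt proteins, rose by 6.50 and 6.26, and Bmper and Chrdl1, which bind BMPs, by 5.34 and 4.63. Nog, noggin, was dim and not called (3.37 and 3.27 in CD51+ BMSCs, against 3.44 and 3.36 in CD45+ cells).

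Interferon response genes were lower in CD51+ BMSCs in 15 of 22 and higher in 2 (median -1.06), with 10 lower without CD51+ array 2 and 5 with all 11 arrays. Of all genes 27.6% were lower and 20.6% higher, and 3.86% were lower with all 11 arrays. Mx1, whose promoter drives Cre in some mice of the study, read 3.64 and 3.48 in CD51+ BMSCs, against 7.03 and 6.72 in CD45+ cells. Its adjusted p was 6.65e-06 in limma, and whether these 4 arrays came from such mice is not stated. Cmpk2 and Zbp1 fell by 2.56 and 1.98, while Gbp2, a guanylate-binding protein, rose by 1.31.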
